A study of Mus musculus with 401 samples.

Results

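The comparison described here is between single oocytes of 9-month-old mice on calorie restriction (CR) and single oocytes of 9-month-old mice fed ad libitum (AL), which carry the label Middle. Its members were the oocyte libraries labelled CR and those labelled Middle in the first of 2 experiments, 27 and 14 libraries, which made 41 of the 401 libraries in the series and 41 of the 74 oocyte libraries in the first experiment. A further Middle oocyte library was left out because its Zp3, a zona pellucida gene, stood at 16.3 CPM (counts scaled to one library total, so that libraries can be compared), which was 0.811% of the median of the 74 oocytes. The limit was 10%, and the next lowest oocyte stood at 23.6%. All mice were B6D2F1 females, the first-generation cross of C57BL/6 and DBA/2. In the CR group the ration was lowered in steps from early adulthood and kept low until 9 months of age, with 1 mouse to a cage and a daily meal, whereas Middle mice ate freely. All females were injected to raise the number of growing follicles, with equine chorionic gonadotropin or the preparation CARD HyperOva. The study does not say which group received which. Germinal vesicle (GV) stage oocytes were taken from fully grown follicles. The Middle oocytes came from 4 mice with 3, 6, 1 and 4 oocytes and the CR oocytes from 3 mice with 3, 11 and 13 oocytes, so oocytes of 1 mouse are not independent animals. Every CR oocyte carried both the restricted diet and the routine of single housing with a daily meal, and the first experiment has no label of plate or sequencing run. Diet and any such difference between the groups, or one in the injected preparation, therefore cannot be told apart.

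A GV oocyte rests in prophase of meiosis I with its chromosomes held together by cohesin complexes loaded before birth, and it has nearly stopped making RNA. The RNA it stored during growth runs the meiotic divisions and the first stages after fertilization, until the embryo makes its own. Restricted feeding is known to delay the loss of egg quality with maternal age in mice, and the sister chromatid cohesion, spindle and mitochondria of the oocyte are where age-related damage is best known. The libraries were made by RamDA-seq, which copies RNA with and without a poly(A) tail along the full length of each transcript. A library gives the share of each RNA in a cell, as CPM, and not the amount of RNA per oocyte.

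Oocyte markers were abundant in both groups. They include Zp3, which the rule for leaving out a Middle library used, so their level in Middle is not an independent check of the label. The summed level of 24 oocyte marker genes ran from 23749 to 38162 CPM in Middle and from 17878 to 39954 CPM in CR oocytes, and the difference between the means per mouse did not pass an exact two-sided permutation test over the 7 mice (p = 0.514). Markers of cumulus and granulosa cells, the somatic cells that wrap the oocyte, summed to between 75.8 and 4567 CPM (median 402) in Middle and between 66.2 and 2561 CPM (median 242) in CR oocytes (exact p = 0.486). This sum was over 1000 CPM in 5 of 14 Middle and 3 of 27 CR libraries. Theca and stroma markers summed to at most 72.0 CPM and blood and immune markers to at most 18.2 CPM (exact p = 1 and 0.571). Means per mouse of the theca and stroma sum were 30.15 CPM in the mouse Middle4 and 1.44 to 3.24 CPM in the other Middle mice. In CR mice they were 3.84 to 8.05 CPM. CR libraries were deeper, with 2752040 to 4536690 counts against 1903860 to 2624880 in Middle (exact p = 0.0286, the smallest that 35 assignments of the mice can give), and the number of genes with a count, 20740 to 23358 against 19655 to 23103, did not pass the test (exact p = 0.143). No 2 libraries had identical counts. P-values over oocytes measure the spread between oocytes, whereas the mice are the animals.

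The question was how far restricted feeding shifts the RNA store of the oocyte. Of 25276 genes tested with edgeR's quasi-likelihood test, 3986 (15.8%) were higher and 3597 (14.2%) were lower in CR oocytes at an adjusted p under 0.05, and these genes are called DEGs below. Most differences were small. The median absolute log2 fold change over the 7583 DEGs was 0.58, and 870 of the higher and 894 of the lower DEGs differed by at least 2-fold. The median log2 fold change over all genes was 0.00. Among the 16372 protein-coding genes 3215 rose and 2765 fell, 36.5% in all. DEGs were more frequent among abundant genes, at 4920 of the 9508 genes with a mean of at least 8 CPM. The counts of the gene lists below stand beside 15.8% higher and 14.2% lower over all genes. Those shares include genes of low level, so they run low for lists of abundant genes. Of the non-coding RNA genes, 1 rose and 9 fell among 71 small nucleolar RNA genes, 11 and 28 among 204 microRNA genes and 3 and 14 among 40 genes annotated as miscellaneous RNA. Among 51 small nuclear RNA genes 4 rose and 1 fell, and among 20 mitochondrial tRNA genes 7 rose and 0 fell. The share called was 14.1% of small nucleolar, 19.1% of microRNA and 9.8% of small nuclear RNA genes, under the 30% of all genes. It was 42.5% of miscellaneous RNA and 35% of mitochondrial tRNA genes. With the deeper CR libraries drawn down to the median depth of Middle, 3491 genes were higher and 3719 lower.

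The 41 oocytes separated into Middle and CR along the second principal component of log2 CPM, which held 9.78% of the variance. Scores ran from 1.03 to 76.1 in Middle and from -46.3 to -2.04 in CR oocytes and did not overlap (exact p = 0.0286). With the mouse Middle3, Middle4 or CR2 left out the scores did overlap. Total counts also split the groups without overlap, and the components were not computed on counts drawn down to Middle depth. Whether depth adds to this separation was not tested. The first component, with 14.8% of the variance, ran from -30.5 to 131 in Middle and from -49.1 to 82.7 in CR oocytes (exact p = 0.286). It moved with cumulus markers: the 8 libraries over 1000 CPM scored 27.5 to 131 and the other 33 from -49.1 to 24.6.

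**Figure D1:**
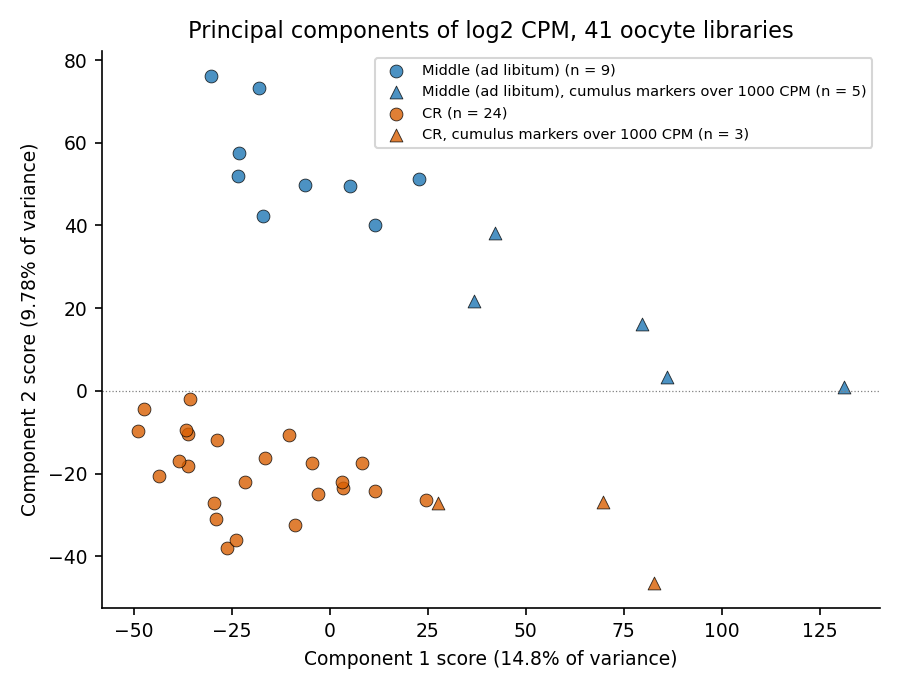
Scores of the 41 oocyte libraries on the first (x axis) and second (y axis) principal components of log2 CPM, with Middle in blue, CR in orange and triangles for libraries with over 1000 CPM of cumulus and granulosa markers. All 14 Middle oocytes lie above and all 27 CR oocytes below 0 on the second component, and the triangles lie to the right on the first.

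The counts of DEGs depended on what was taken as the unit and on which libraries entered. With counts summed per mouse, 1266 of 29046 genes (4.36%) were higher and 876 (3.02%) lower, which included 1263 of the higher and 867 of the lower DEGs of the single oocytes. Without the 8 libraries high in cumulus markers 3855 of 23994 genes (16.1%) were higher and 3292 (13.7%) lower. No overlap at all between the 27 CR and 14 Middle oocytes was found for 143 genes, of which 95 (0.376% of those tested) were higher in every CR oocyte and 48 (0.19%) were lower. The differences also followed gene length and base composition. Over 8602 protein-coding genes with a mean of at least 8 CPM, the median log2 fold change fell from 0.27 in the octile with the lowest GC content (median 39.9%) to -0.29 in the octile with the highest (median 58.1%), and it rose from -0.23 in the octile of shortest genes to 0.20 in that of the longest. After each library was corrected for its trend with length and GC content, the octile medians lay between -0.05 and 0.01, and 3411 genes (13.5%) were higher and 3432 (13.6%) lower. Of the uncorrected DEGs, 2800 of the higher and 2651 of the lower remained, and 136 and 69 changed sign. Corrected counts are given beside those of the gene lists, and whether the trend came from diet or from library preparation was not tested.

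**Figure D2:**
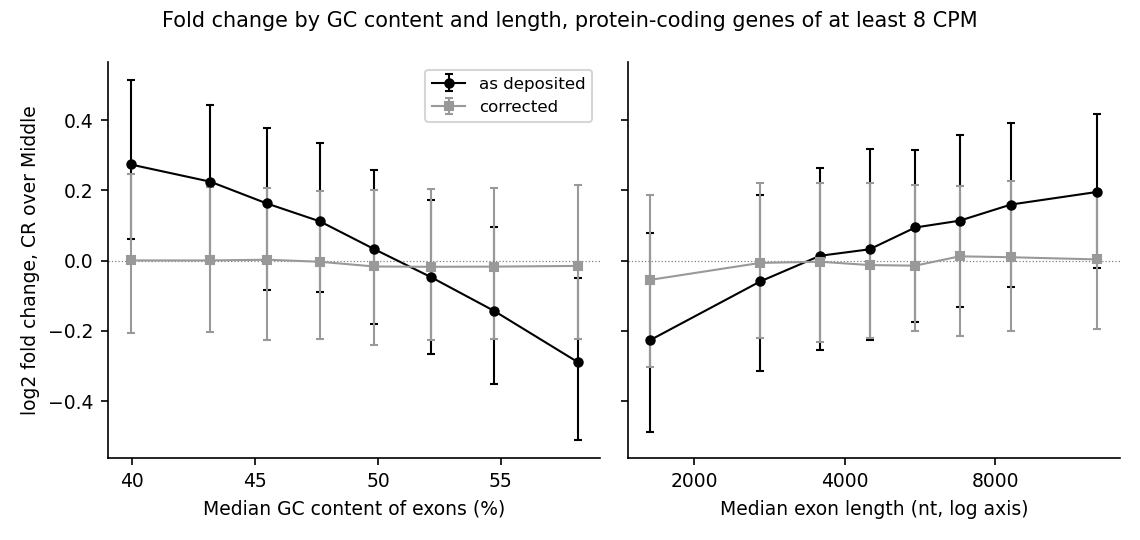
Median log2 fold change (CR over Middle, y axis) of protein-coding genes in 8 equal bins of exon GC content (left, %) and exon length (right, nucleotides, log axis), as deposited in black and corrected in grey, with bars from the lower to the upper quartile of genes. The uncorrected medians fall with GC content and rise with length, and the corrected medians stay near 0.

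A set of 16 oocytes from AL mice of the same strain and age was available from the second experiment. Against these, 6649 of 24748 genes (26.9%) were higher and 4284 (17.3%) lower in CR oocytes. The 2 AL groups also differed from each other: 663 of 22476 genes (2.95%) were higher and 1647 (7.33%) lower in the second set than in Middle, and 21 of the 23 cumulus and granulosa markers tested were among the lower ones. These comparisons share libraries with the main one and are used only to set values side by side. In pools of the cumulus cells around such oocytes, 509 of 24657 genes (2.06%) were higher and 378 (1.53%) lower with CR.

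Pax6, a paired-box transcription factor of eye and brain development (GRCm38 chromosome 2, 105668900 to 105697364, plus strand), had the largest rise among protein-coding genes with a mean of at least 8 CPM. In Middle oocytes its lowest, median and highest levels were 0, 0.435 and 2.03 CPM, with 18 counts over the 14 libraries, and in CR oocytes they were 9.77, 16.2 and 26 CPM, so each CR oocyte exceeded each Middle oocyte. The log2 fold change was 4.79 ± 0.26 (SE, adjusted p = 5.2e-19). Means per mouse were at most 0.925 CPM in the 4 Middle mice and 13.2 to 20.3 CPM in the 3 CR mice (exact p = 0.0286). Trim6, a ubiquitin ligase of the TRIM family (chromosome 7, 104218793 to 104235152, plus strand), ran from 0 to 13.7 CPM (median 2.24) in Middle and from 8.71 to 64.3 CPM (median 32.7) in CR oocytes, a log2 fold change of 3.26 ± 0.33 (adjusted p = 9.3e-11), with 26 of 27 CR oocytes above the highest Middle oocyte. Zfp521, a zinc finger regulator of progenitor cells, ran from 0 to 13.7 CPM (median 3.03) in Middle and from 9.80 to 41.5 CPM (median 26.1) in CR oocytes, a log2 fold change of 2.34 ± 0.26 (adjusted p = 6.6e-10). None of these 3 genes differed at an adjusted p under 0.05 between the 2 AL sets (adjusted p = 0.617, 0.831 and 0.123) or between CR and Middle cumulus cells (0.524, 0.531 and 0.957).

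The rise of Wls was close to the same size in each CR mouse. Wls, the carrier that brings Wnt ligands to the cell surface (chromosome 3, 159839672 to 159938664, plus strand), stood at 5.99 to 26.7 CPM (median 15.2) in Middle and at 40.5 to 88.1 CPM (median 59.4) in CR oocytes without overlap, a log2 fold change of 1.94 ± 0.13 (adjusted p = 1.4e-15). Its means per mouse were close within each diet, 15.4 to 17.1 CPM in Middle and 60.2 to 62.7 CPM in CR mice. Gjb2, the gap junction protein connexin 26 (chromosome 14, 57098600 to 57104702, minus strand), stood at 3.71 to 36.8 CPM (median 12.8) in Middle and 16.2 to 108 CPM (median 62.1) in CR oocytes, a log2 fold change of 1.90 ± 0.22 (adjusted p = 1.5e-09), and 25 of 27 CR oocytes were above the highest Middle oocyte. Slc16a6, of the monocarboxylate transporter family, rose by 2.21 ± 0.38 on the log2 scale (adjusted p = 1.0e-05), from a median of 1.61 to 11.1 CPM with overlap between the groups. Ptgs2, the inducible cyclooxygenase of prostaglandin synthesis, Stxbp3, a vesicle docking protein, and Rap2c, a small GTPase related to Ras, rose by 1.88 ± 0.28, 1.73 ± 0.18 and 1.69 ± 0.25 (adjusted p = 7.7e-07, 1.7e-10 and 5.2e-07). Ptgs2 is also induced in cumulus cells around ovulation, and of the 3 such genes that could be tested it was the 1 that rose. In the cumulus cells its log2 difference was -0.65 (adjusted p = 0.666). The largest rise outside protein-coding genes was AC134468.1, a transcribed pseudogene (chromosome 12, 39948444 to 39950632, minus strand), at 9.65 to 25.6 CPM (median 22) in Middle and 52.1 to 122 CPM (median 103) in CR oocytes, a log2 fold change of 2.27 ± 0.11 (adjusted p = 1.1e-20) with no overlap. It was followed by Gm28661 and Gm13341, nuclear pseudogenes at 1.88 ± 0.13 and 1.76 ± 0.14. Gm28661 carried the same levels as mt-Co2 of the mitochondrial genome (medians of 78.0 CPM for both in Middle oocytes), and reads of the 2 genes cannot be told apart.

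Among the largest falls Rbm47, an RNA-binding protein gene (chromosome 5, 66016549 to 66173118, minus strand), did not overlap between the groups. Its level was 13.3 to 45.8 CPM (median 26.8) in Middle and 0 to 12.6 CPM (median 3.24) in CR oocytes, a log2 fold change of -2.62 ± 0.25 (adjusted p = 2.2e-11). Cdo1, which oxidizes cysteine in taurine synthesis, stood at 64.6 to 299 CPM (median 135) in Middle and at 9.29 to 78.4 CPM (median 23.2) in CR oocytes, a log2 fold change of -2.33 ± 0.24 (adjusted p = 1.7e-10), and 23 of 27 CR oocytes were below the lowest Middle oocyte. Crabp2, a carrier of retinoic acid (chromosome 3, 87948666 to 87953376, plus strand), stood at 9.53 to 41.4 CPM (median 18.8) in Middle and 1.56 to 12.3 CPM (median 4.58) in CR oocytes, a log2 fold change of -2.06 ± 0.19 (adjusted p = 1.2e-11). It was lower in CR cumulus cells too, with a log2 fold change of -1.15 (adjusted p = 0.0279). The metalloprotease gene Adam8, AU018091 and Ly6e, a membrane-anchored protein of the Ly6 family, fell by 1.82 ± 0.22, 1.77 ± 0.22 and 1.71 ± 0.19 on the log2 scale (adjusted p = 8.1e-09, 1.4e-08 and 4.8e-10). Each of these 6 genes was also lower with counts summed per mouse (adjusted p from 2.3e-04 to 0.0028), after the correction and against the second AL set, with log2 fold changes of -2.38 to -1.36 in the last.

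**Figure D3:**
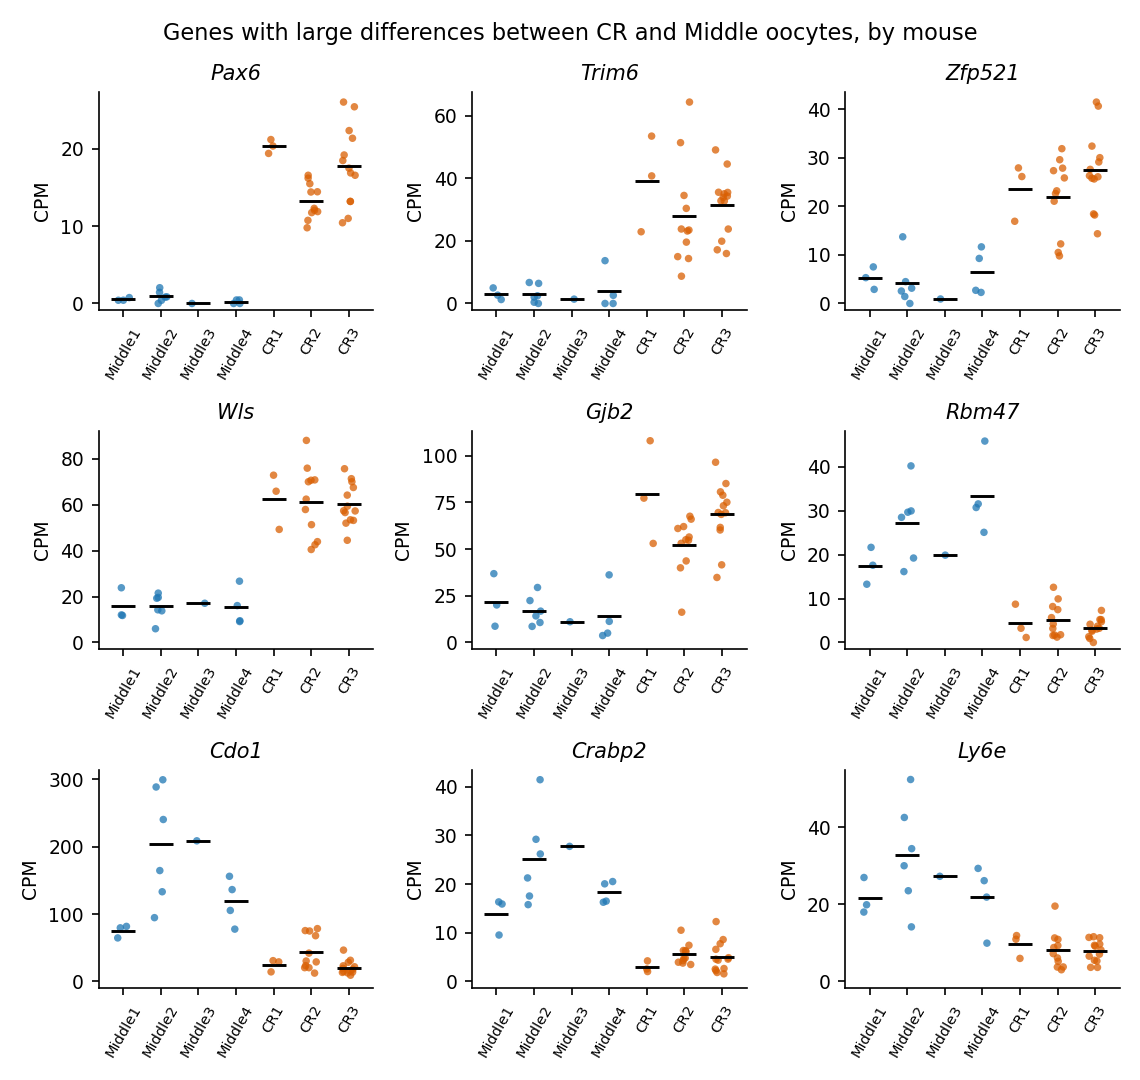
CPM (y axis) of 9 genes with large differences in each oocyte, grouped by mouse (x axis), with Middle in blue, CR in orange and a bar at the mean of each mouse. Pax6, Trim6, Zfp521, Wls and Gjb2 are higher and Rbm47, Cdo1, Crabp2 and Ly6e lower in each of the 3 CR mice than in each of the 4 Middle mice.

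The remaining large falls among protein-coding genes rested on few libraries. Cyp11a1, Star and Hsd3b1, which bring in cholesterol and turn it into progesterone in steroid-making cells, had log2 fold changes of -4.16 ± 0.69, -3.33 ± 0.56 and -1.84 ± 0.60 (adjusted p = 4.4e-06, 5.7e-06 and 0.017). Their medians, however, were close, at 2.51 and 2.48 CPM for Cyp11a1, 1.76 and 1.61 CPM for Star and 3.09 and 3.50 CPM for Hsd3b1 in Middle and CR oocytes. Cyp11a1 reached 341 and 797 CPM in 2 oocytes of the mouse Middle4 and at most 19.9 CPM in the other 12 Middle oocytes. These 2 oocytes carried 1139 and 4567 CPM of cumulus and granulosa markers and the 2 highest levels of theca markers, 39.7 and 72.0 CPM. Of the 7 theca and stroma markers tested 1 rose and 5 fell. With counts summed per mouse 0 of 8 passed edgeR's test, and 5 had an unadjusted p under 0.05. Without Middle4 the log2 fold changes of the 3 genes were 1.53, 0.59 and 1.59 and did not pass the test (adjusted p = 0.0786, 0.324 and 0.0709). Summed per mouse, adjusted p was 0.23, 0.13 and 0.48. Fosl2, a subunit of the transcription factor AP-1, followed the same libraries, with 53.3 and 98.9 CPM in the same 2 oocytes, a log2 fold change of -1.93 ± 0.43 (adjusted p = 4.6e-04) and of -0.05 without the libraries high in cumulus markers. Among the 24 cumulus and granulosa markers as a whole 1 rose and 7 fell. Without those libraries 4 of the 23 tested rose and 0 fell, but these same markers decided which libraries were left out, so this change is no test. The 1 rise over all 41 oocytes was Kitl, the ligand of the oocyte receptor Kit. It stood at 2.57 to 17.2 CPM (median 8.05) in Middle and 5.37 to 42.1 CPM (median 16.7) in CR oocytes (log2 fold change 1.05 ± 0.22, adjusted p = 2.5e-04). Outside protein-coding genes Gm49371, 0610033M10Rik and Gm43269 had the largest falls, at -1.63 ± 0.48, -1.59 ± 0.15 and -1.38 ± 0.16. For Gm49371 100% of the nonzero counts were not whole, so its level includes shared reads.

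The protein genes of the mitochondrial genome rose together. This genome encodes 13 subunits of the respiratory chain and ATP synthase, and all 13 were higher in CR oocytes, with log2 fold changes of 1.02 to 1.88 and a median of 1.17, against 15.8% of all genes called higher. mt-Co2, a subunit of cytochrome c oxidase, stood at 58.4 to 136 CPM (median 78.0) in Middle and at 174 to 493 CPM (median 293) in CR oocytes without overlap (log2 fold change 1.88 ± 0.13, adjusted p = 8.1e-16). mt-Nd1, of complex I, stood at 71.6 to 273 CPM (median 130) in Middle and at 283 to 847 CPM (median 418) in CR oocytes, again without overlap (1.63 ± 0.15, adjusted p = 1.3e-11). mt-Nd2, also of complex I, rose by 1.68 ± 0.16 with overlap between the groups. The next values are for members outside the rule for named genes, chosen after they were seen to show the range of the list. mt-Co1 and mt-Co3 rose by 1.28 ± 0.12 and 1.16 ± 0.12, mt-Atp6 and mt-Atp8 of ATP synthase by 1.17 ± 0.13 and 1.47 ± 0.20, mt-Nd3 and mt-Nd4 by 1.08 ± 0.27 and 1.02 ± 0.15, and mt-Cytb, the complex III subunit, by 1.02 ± 0.11. The 13 genes together took 0.0961% to 0.261% (median 0.138%) of the counts in Middle and 0.225% to 0.762% (median 0.341%) in CR oocytes. Means per mouse were 0.146% to 0.161% in the 4 Middle mice and 0.350% to 0.436% in the 3 CR mice (exact p = 0.0286).

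The ribosomal RNA genes of mitochondria moved less. mt-Rnr1, the small subunit RNA, stood at 1565 to 4399 CPM (median 2316) in Middle and 2309 to 9690 CPM (median 3019) in CR oocytes (log2 fold change 0.45 ± 0.15, adjusted p = 0.015). The large subunit RNA mt-Rnr2 had medians of 3348 and 3288 CPM and a log2 fold change of 0.15 ± 0.19 (adjusted p = 0.59). The share of all counts from the mitochondrial genome was 0.439% to 1.34% in Middle and 0.672% to 3.47% in CR oocytes (exact p = 0.0286), a difference of 0.485 percentage points that was 0.264 without the mouse CR1, of which 1 oocyte held the highest share. All 13 protein genes stayed higher with counts summed per mouse, after the correction (median 0.996), without the libraries high in cumulus markers and against the second AL set (median 1.42). Between the 2 AL sets 5 of the 13 were lower and 0 higher in the second set. When the library low in Zp3 was put back among the Middle oocytes, 4 of the 13 passed and their median was 0.57. In cumulus cells 0 of the 13 passed edgeR's test (5 had an unadjusted p under 0.05), and their median was -0.15.

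**Figure D4:**
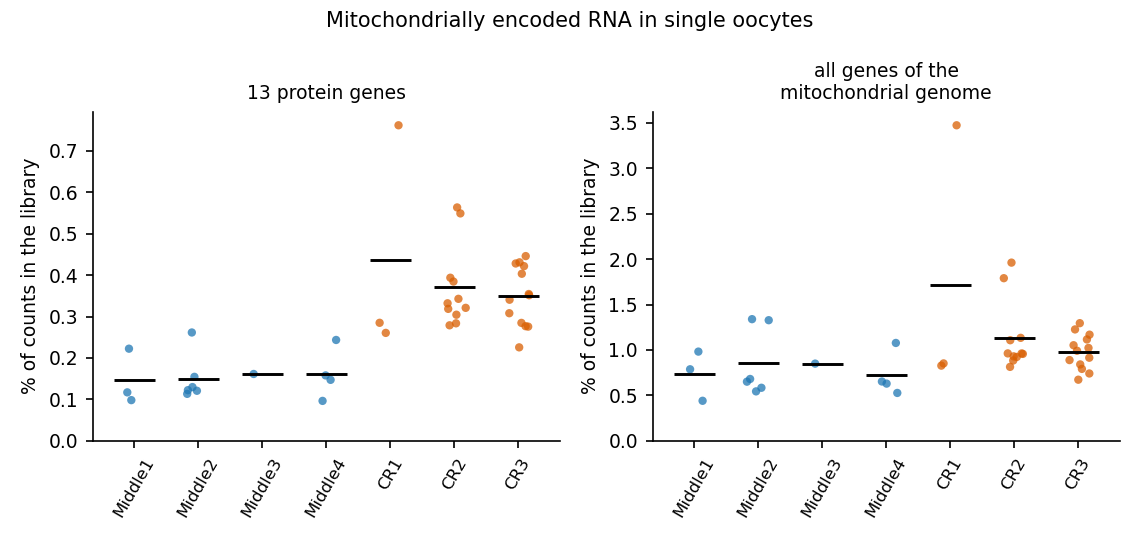
Percent of the counts of each oocyte library (y axis) from the 13 mitochondrially encoded protein genes (left) and from all genes of the mitochondrial genome (right), grouped by mouse (x axis), with bars at the mean of each mouse. Mouse means of the 13 protein genes are 0.146% to 0.161% in Middle and 0.350% to 0.436% in CR mice, and 1 CR1 oocyte is highest in both panels.

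Nuclear genes for the same organelle gave more falls than rises. Of 74 nuclear-encoded subunits of the respiratory chain and ATP synthase 10 rose and 29 fell, with a median of -0.18 (14 and 25 after the correction, median -0.06). Atp5j2, an ATP synthase subunit, fell without overlap from 28.5 to 56.8 CPM (median 36.1) in Middle to 11.5 to 24.1 CPM (median 15.8) in CR oocytes (log2 fold change -1.16 ± 0.10, adjusted p = 5.9e-13). Ndufb2 and Ndufa13 of complex I fell by 0.93 ± 0.13 and 0.91 ± 0.12. The largest rises were Uqcrb of complex III at 1.55 ± 0.23, Ndufs1 of complex I at 0.65 ± 0.10 and Atp5f1 of ATP synthase at 0.49 ± 0.08. Of 78 proteins of the mitochondrial ribosome 6 rose and 40 fell (median -0.27, and 8 and 33 after the correction). Mrps12 fell without overlap by 0.94 ± 0.12 (adjusted p = 2.3e-08) and Mrpl54 by 0.96 ± 0.18, whereas Mrps18c rose by 1.05 ± 0.16. Summed per mouse, 1 and 7 of the respiratory subunits and 1 and 9 of the ribosomal proteins passed as higher and lower.

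Chromosome segregation genes were described by role. The study named 19 of them as raised in these same oocytes, so their direction is not independent evidence, and all 19 were higher here, with log2 fold changes of 0.20 to 0.997 and a median of 0.42. Among those that attach chromosomes to spindle microtubules at the kinetochore, Knl1, the scaffold that recruits checkpoint proteins, stood at 30.6 to 71.6 CPM (median 59.4) in Middle and 60.6 to 132 CPM (median 96.1) in CR oocytes (0.73 ± 0.09, adjusted p = 2.2e-08), and 24 of 27 CR oocytes exceeded the highest Middle oocyte. The kinetochore motor Cenpe stood at 98.5 to 203 CPM (median 162) in Middle and 182 to 348 CPM (median 227) in CR oocytes (0.49 ± 0.07, adjusted p = 9.9e-07). Cenpw and Cenph of the inner kinetochore rose by 0.997 ± 0.18 and 0.67 ± 0.11, Spc25 and Ndc80 of the microtubule-binding NDC80 complex by 0.62 ± 0.12 and 0.55 ± 0.11, Cenpf by 0.44 ± 0.08 and Mis12 by 0.31 ± 0.05. Ska3, Bub1, Hjurp and Meikin had smaller differences of 0.24 ± 0.08, 0.20 ± 0.07, 0.34 ± 0.12 and 0.34 ± 0.12 (adjusted p = 0.016, 0.018, 0.033 and 0.033), and their means per mouse overlapped between the diets. For Bub1, the checkpoint kinase, the corrected log2 fold change was -0.03 (adjusted p = 0.78). Of the 3 spindle genes, the microtubule depolymerase Kif2c rose by 0.40 ± 0.06, the spindle motor Kif11 by 0.42 ± 0.08 and the centrosomal kinase Nek2 by 0.26 ± 0.08.

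Among the cohesion genes of the 19, Stag1 had the largest log2 fold change. It encodes a core cohesin subunit (chromosome 9, 100597798 to 100959375, plus strand) and stood at 16.7 to 51.1 CPM (median 31.3) in Middle and 40.9 to 82.9 CPM (median 58.4) in CR oocytes, a log2 fold change of 0.95 ± 0.10 (adjusted p = 1.2e-10), and its means per mouse were 25 to 36.2 and 57.0 to 67.5 CPM (exact p = 0.0286). Sgo1, a shugoshin that shields centromeric cohesin, stood at 37.8 to 68 CPM (median 50.2) in Middle and 58.0 to 97.3 CPM (median 71.6) in CR oocytes (0.54 ± 0.07, adjusted p = 9.7e-08). Rad21, the cohesin subunit of dividing body cells, rose by 0.40 ± 0.07, and the cohesin acetylase Esco2 by 0.34 ± 0.11 (0.06 after the correction, adjusted p = 0.66). Of 18 other cohesin genes 8 rose and 1 fell (6 and 3 after the correction, 5 and 0 summed per mouse, and 1 and 0 summed and corrected). The rises included the meiotic subunits Smc1b, at 4.07 to 12.3 CPM (median 8.62) in Middle and 10.5 to 22.5 CPM (median 14.5) in CR oocytes (0.84 ± 0.12, adjusted p = 1.6e-07), and Stag3 (0.62 ± 0.20, adjusted p = 0.014), and the cohesin regulator Pds5a (0.74 ± 0.17). The fall was Smc1a, the body-cell counterpart of Smc1b (-0.34 ± 0.10, adjusted p = 0.0081). The meiotic subunit Rec8, which the study stained on chromosomes, was listed but was not among the genes tested. Of the 19 genes, 16 were still higher after the correction, 15 without the libraries high in cumulus markers, 9 with both, 11 with counts summed per mouse and 4 summed and corrected, and none was lower in these fits. Against the second AL set 18 were higher and 0 lower, and with the correction 13 were higher and 3 lower. Leaving out 1 mouse at a time left 15 to 19 higher and 0 lower. In cumulus cells 1 of 18 was higher.

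The rest of the chromosome machinery was divided. Of 29 other kinetochore and centromere genes 8 rose and 6 fell (4 and 6 after the correction, and 1 and 2 with counts summed per mouse). Zwilch, which brings checkpoint proteins to the kinetochore, Nuf2 of the NDC80 complex and the centromere protein Cenpi rose by 0.60 ± 0.07, 0.52 ± 0.08 and 0.39 ± 0.14. Cenpx fell from 43.8 to 116 CPM (median 65.0) in Middle to 19.4 to 52.8 CPM (median 35.3) in CR oocytes (-0.93 ± 0.10, adjusted p = 7.8e-10), Cenpm fell by 0.66 ± 0.07, and Cenpa, the histone that marks centromeres and a member outside the rule chosen after its value was seen, fell by 0.36 ± 0.10. Of 17 genes of the spindle checkpoint and the chromosomal passenger complex 1 rose and 9 fell, with a median of -0.19 (1 and 7 after the correction). The passenger kinases Aurkb and Aurkc stood at 17.3 to 39 CPM (median 26.2) and 128 to 317 CPM (median 192) in Middle and at 11.3 to 37.3 CPM (median 15.6) and 92.2 to 190.1 CPM (median 139) in CR oocytes (-0.74 ± 0.11 and -0.50 ± 0.10, adjusted p = 8.5e-07 and 6.1e-05). Mad2l1bp, which silences the checkpoint, fell by 0.63 ± 0.17, and Cdca8 of the passenger complex by 0.45 ± 0.07, while Mad2l1, the checkpoint effector, rose by 0.51 ± 0.08. Bub1b, another checkpoint component, had medians of 1732 and 1771 CPM and a log2 fold change of -0.05 ± 0.07 (adjusted p = 0.59). These values of Cdca8 and Bub1b were also chosen after they were seen. With counts summed per mouse 0 checkpoint and passenger genes were higher and 1 lower. Of 21 spindle motors and microtubule genes 9 rose and 2 fell (9 and 3 after the correction, and 3 and 0 with counts summed per mouse). Prc1, which bundles microtubules of the central spindle, and the chromosome motor Kif4 rose without overlap, from 303 to 581 CPM (median 488) to 652 to 985 CPM (median 773) and from 178 to 310.2 CPM (median 262) to 318 to 494 CPM (median 373), by 0.68 ± 0.06 and 0.54 ± 0.06 (adjusted p = 1.2e-11 and 2.4e-09). The motor Kif20a fell by 0.29 ± 0.05.

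**Figure D5:**
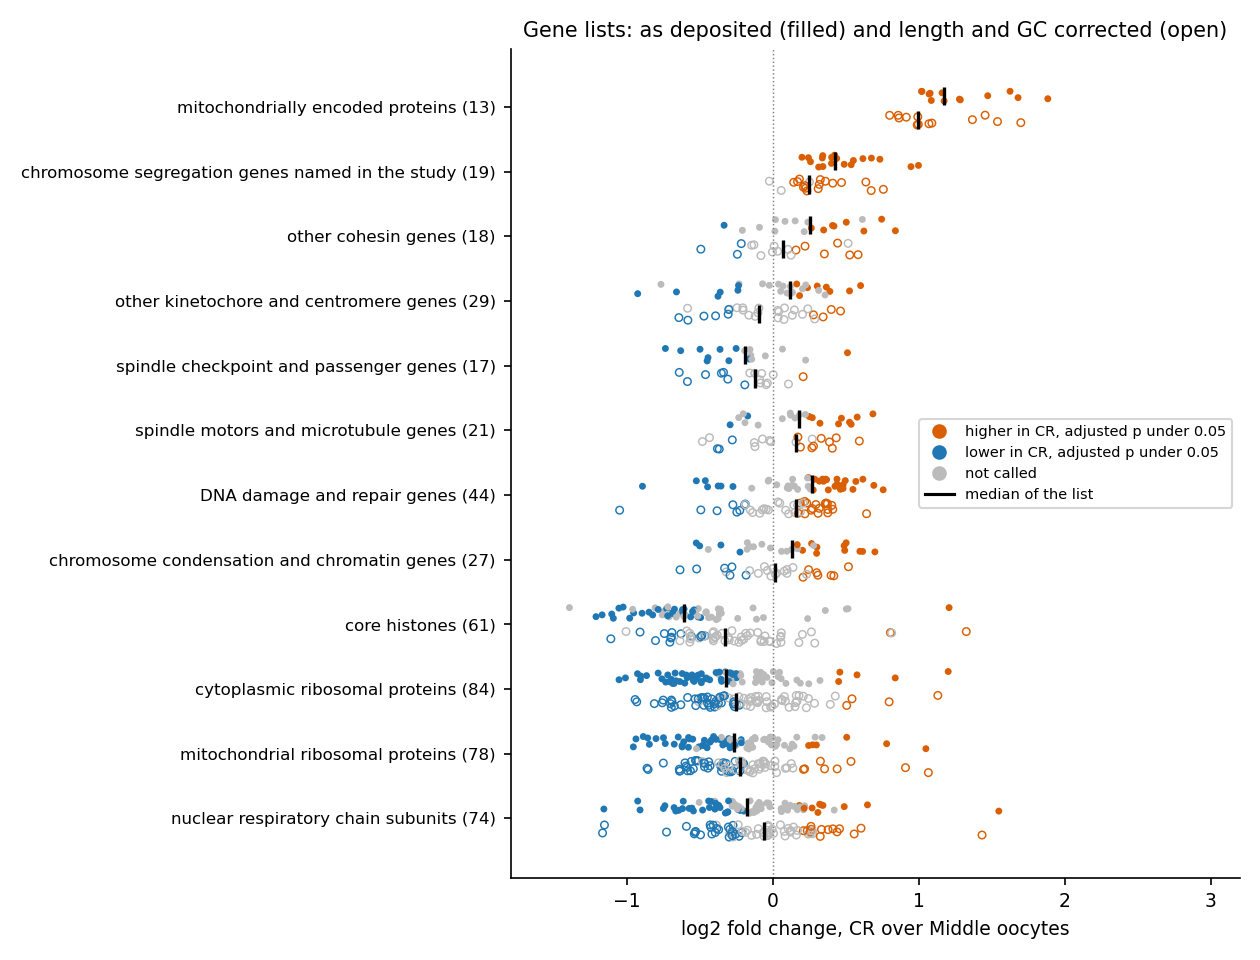
Log2 fold change (CR over Middle, x axis) of each tested gene in 12 lists (y axis, number of genes in parentheses), with uncorrected values as filled and length and GC corrected values as open points, orange for higher, blue for lower, grey for not called and a bar at the median of each list. All 13 mitochondrially encoded proteins are higher in both rows, and the medians of the core histones, both groups of ribosomal proteins and the nuclear respiratory chain subunits are below 0 in both rows.

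Genes of DNA damage and repair gave more rises than falls. Of 44 listed 23 rose and 7 fell with a median of 0.27 (18 and 8 after the correction, median 0.16). Nbn, of the complex that senses double-strand breaks, stood at 4.15 to 17.1 CPM (median 9.67) in Middle and 10.0 to 25.4 CPM (median 16.6) in CR oocytes (0.76 ± 0.13, adjusted p = 7.8e-06). Prkdc and Atm, kinases of the break response, rose by 0.69 ± 0.16 and 0.62 ± 0.16, and Atm did not pass after the correction (0.36, adjusted p = 0.083). Rad52, an annealing factor of recombination, fell from 14.7 to 32.8 CPM (median 23.2) to 6.38 to 22.2 CPM (median 12.4) by 0.90 ± 0.11 (adjusted p = 2.0e-08), and Xrcc3, another recombination gene, fell by 0.53 ± 0.10. With counts summed per mouse 8 rose and 2 fell, and summed and corrected 1 rose and 2 fell. Of 27 genes of chromosome condensation and chromatin 11 rose and 4 fell, and 7 and 6 did so after the correction. With counts summed per mouse 5 of these rose and 0 fell. The condensin subunits Smc2 and Ncapg rose by 0.70 ± 0.17 and 0.60 ± 0.07 and the deacetylase Hdac2 by 0.61 ± 0.07, and the histone methyltransferase Kmt2b and the replacement histone gene H3f3b fell by 0.53 ± 0.15 and 0.50 ± 0.08.

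Core histone genes, which package DNA, gave more falls than rises. Of 61 tested 1 rose and 25 fell, and the median log2 fold change was -0.61. The falls included Hist2h2ac, at 2.28 to 6.54 CPM (median 3.24) in Middle and 0.540 to 3.66 CPM (median 1.47) in CR oocytes (-1.21 ± 0.21, adjusted p = 8.4e-06), and Hist2h2aa2, at 7.95 to 23.6 CPM (median 10.1) and 3.19 to 11 CPM (median 5.13) (-1.11 ± 0.15, adjusted p = 8.4e-08). The rise was Hist2h4 (1.21 ± 0.33, adjusted p = 0.0035). Reads can be shared between near-identical copies. Of the nonzero counts of Hist2h2ac and Hist2h2aa2 97.6% were not whole, so the values of single copies are uncertain. The number of falls was 13 after the correction (median -0.33) and 4 with counts summed per mouse. Summed and corrected, 1 rose and 1 fell, with a median of -0.18. The falls numbered 44 without the libraries high in cumulus markers and 47 with the library low in Zp3 put back. Without the mice Middle2, CR1, CR2 and CR3 they numbered 7, 34, 17 and 8.

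Falls outnumbered rises among ribosomal protein genes, whereas initiation factors went both ways. Of 84 cytoplasmic ribosomal proteins 5 rose and 47 fell, with a median of -0.32. After the correction 4 rose and 38 fell (median -0.26). With counts summed per mouse 2 rose and 18 fell, and summed and corrected 3 rose and 12 fell. Rpl37a stood at 7.23 to 22.7 CPM (median 11.8) in Middle and 2.37 to 13.1 CPM (median 6.47) in CR oocytes (-1.06 ± 0.16, adjusted p = 5.3e-07), and Rpl13 at 32.1 to 104 CPM (median 51.7) and 16.3 to 45.0 CPM (median 26.3) (-1.01 ± 0.11, adjusted p = 3.1e-10). Of the nonzero counts of these 2 genes 95.1% and 100% were not whole, so they include reads shared with other genes. The largest rises were those of 2 ribosomal protein paralogs, Rpl22l1 (1.20 ± 0.18) and Rps27l (0.84 ± 0.14). In the cumulus cells 2 ribosomal proteins were higher and 0 lower. Of 31 initiation factors 10 rose and 6 fell (9 and 7 after the correction, and 3 and 1 with counts summed per mouse). Eif4b, which aids unwinding of the mRNA leader, rose by 0.62 ± 0.08 from 128 to 208 CPM (median 168) to 145 to 299 CPM (median 269), and Eif5 rose by 0.56 ± 0.07, while Eif3d and Eif3i of the eIF3 complex fell by 0.62 ± 0.07 and 0.47 ± 0.07.

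The genes that store and clear maternal RNA went both ways. Of 30 listed 10 rose and 8 fell, and after the correction 5 rose and 13 fell. With counts summed per mouse 4 rose and 2 fell. Ddx6, a helicase of RNA granules, stood at 32.3 to 88.0 CPM (median 49.0) in Middle and 55.0 to 179.5 CPM (median 86.5) in CR oocytes (0.78 ± 0.13, adjusted p = 2.9e-06), Tut7, which adds uridines to mRNA tails, rose by 0.70 ± 0.08 and the deadenylase Cnot6 by 0.60 ± 0.11. Zar1l, a relative of the maternal RNA-binding protein Zar1, fell from 145 to 263 CPM (median 196) to 91.0 to 152 CPM (median 125) by 0.70 ± 0.07 (adjusted p = 3.9e-11). Ybx2, the germ cell Y-box protein that coats stored mRNA, fell by 0.59 ± 0.08 (adjusted p = 3.1e-08), and by 0.20 after the correction (adjusted p = 0.025). Of the 24 oocyte markers 4 rose and 7 fell (4 and 5 after the correction, and 0 and 1 with counts summed per mouse). The falls include Zp3, which the rule for leaving out a library used, so its difference is no test. Khdc3 of the subcortical maternal complex fell without overlap, from 143 to 287 CPM (median 184) to 32.6 to 142 CPM (median 105) (-0.84 ± 0.11, adjusted p = 5.4e-08), and Nlrp5, another protein of that complex, rose from a median of 1209 to 2091 CPM (0.73 ± 0.17, adjusted p = 5.6e-04). Nlrp14 rose by 0.42 ± 0.13, which was lost after the correction (adjusted p = 0.22), and the zona gene Zp2 and the growth factor Gdf9 had log2 fold changes of 0.17 ± 0.11 and 0.14 ± 0.08 (adjusted p = 0.29 and 0.16).

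Of 20 genes of meiotic arrest and resumption 4 rose and 3 fell (3 and 6 after the correction, and 1 and 1 with counts summed per mouse). The uncorrected shares were close to the 15.8% and 14.2% of all genes, which include genes of low level. Mastl, the Greatwall kinase needed for entry into division, stood at 160 to 362 CPM (median 251) in Middle and 324 to 507 CPM (median 360) in CR oocytes (0.52 ± 0.07, adjusted p = 2.2e-08). The phosphodiesterase Pde3a, which lowers cyclic AMP at resumption, rose by 0.42 ± 0.09 and was not called after the correction (0.15, adjusted p = 0.14). Gpr3, the receptor that keeps cyclic AMP high during arrest, fell from 72.3 to 134 CPM (median 106) to 44.1 to 95.4 CPM (median 74.1) by 0.53 ± 0.08 (adjusted p = 9.5e-07), and Mos, the kinase of the second meiotic arrest, fell by 0.37 ± 0.06. Of 14 subunits of the anaphase promoting complex 5 rose and 2 fell, and 2 and 4 did so after the correction. With counts summed per mouse 0 passed edgeR's test, and 3 had an unadjusted p under 0.05.

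Nutrient signalling genes gave counts on both sides. Of 23 genes of insulin, PI3K and FOXO signalling 7 rose and 4 fell (6 and 2 after the correction, and 4 and 0 with counts summed per mouse). Gsk3b, a kinase held off by insulin signalling, stood at 63.3 to 104 CPM (median 84.5) in Middle and 94.2 to 182 CPM (median 140) in CR oocytes (0.71 ± 0.07, adjusted p = 9.3e-11), the kinase Sgk1 rose by 0.64 ± 0.13 and the PI3K catalytic subunit Pik3cb by 0.54 ± 0.09. Irs2, an insulin receptor substrate, had medians of 1.12 and 0.547 CPM and fell by 1.62 ± 0.55 (adjusted p = 0.02), but its log2 fold change was -0.43 without the libraries high in cumulus markers. Of 29 mTOR and AMPK genes 5 rose and 5 fell (3 and 3 after the correction), shares near the 15.8% and 14.2% of all genes. Summed per mouse, 0 passed edgeR's test and 3 had an unadjusted p under 0.05. Eif4ebp2, a translation repressor under mTOR, rose by 0.43 ± 0.16 and Lamtor4 of the lysosomal anchor of mTORC1 fell by 0.57 ± 0.14. Of the 7 sirtuins, NAD-dependent deacylases studied in calorie restriction, 1 rose and 4 fell, and 1 rose and 1 fell both after the correction and with counts summed per mouse. Sirt4, a mitochondrial sirtuin, fell from 6.03 to 16.4 CPM (median 11.3) to 2.71 to 8.28 CPM (median 4.11) by 1.45 ± 0.13 (adjusted p = 1.3e-12), with 26 of 27 CR oocytes below the lowest Middle oocyte, and Sirt5, also mitochondrial, rose from 9.09 to 17.8 CPM (median 13.9) to 14.7 to 29.7 CPM (median 23.1) by 0.66 ± 0.09 (adjusted p = 2.1e-07). Sirt6 fell by 0.53 ± 0.09 and was not called after the correction (adjusted p = 0.099).

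Among metabolic genes, 4 of 21 of fatty acid oxidation rose and 6 fell, and 3 of 21 of glycolysis and pyruvate use rose and 7 fell (4 and 5, and 3 and 5, after the correction). Acadm, the medium-chain acyl-CoA dehydrogenase, and the carnitine carrier Slc25a20 rose by 0.54 ± 0.16 and 0.47 ± 0.12, and the pyruvate dehydrogenase subunits Dlat and Pdha1 by 0.41 ± 0.08 and 0.36 ± 0.07. The fall of Hadh, an enzyme of the same pathway (-1.15 ± 0.29), was not called without the libraries high in cumulus markers, where its log2 fold change was -0.55, and 5 and 3 fatty acid genes and 4 and 4 glycolytic genes were then higher and lower. With counts summed per mouse 0 genes of either list passed edgeR's test, and 6 and 7 had an unadjusted p under 0.05.

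Of 24 antioxidant genes 3 rose and 7 fell (2 and 5 after the correction, and 2 and 3 with counts summed per mouse). Hmox1, the inducible heme oxygenase, stood at 0 to 7.24 CPM (median 1.30) in Middle and 2.53 to 14.3 CPM (median 8.13) in CR oocytes, a log2 fold change of 2.20 ± 0.27 (adjusted p = 6.4e-09), and Nfe2l2, the transcription factor that drives it under oxidative stress, stood at 8.66 to 27.7 CPM (median 17.4) and 18.6 to 49.3 CPM (median 28.2) (0.73 ± 0.13, adjusted p = 7.9e-06). Their means per mouse did not overlap between the diets (exact p = 0.0286 for each). The falls included the peroxide-removing enzymes Gpx1 at -1.15 ± 0.16 and Prdx3 at -0.60 ± 0.09, and so was the mitochondrial thioredoxin Txn2 at -0.73 ± 0.07. Of 21 stress response and chaperone genes 5 rose and 2 fell, whereas 4 rose and 6 fell after the correction. Summed per mouse, 3 of these rose and 2 fell. The chaperones Hspd1 and Dnaja1 rose by 0.71 ± 0.08 and 0.78 ± 0.09, Hspd1 without overlap from 18.0 to 38.3 CPM (median 29.7) to 38.3 to 61.8 CPM (median 48.2). Hsf1, the heat shock transcription factor, fell without overlap from 81.6 to 126 CPM (median 103) to 41.7 to 73.2 CPM (median 57.3), a log2 fold change of -0.87 ± 0.06 (adjusted p = 8.5e-15), and Eif2ak4, a kinase that senses amino acid lack, fell by 0.46 ± 0.10. Of 39 proteasome subunits 9 rose and 10 fell, against 15.8% and 14.2% of all genes. These counts were 11 and 12 after the correction, and 2 and 3 with counts summed per mouse. Psmc6 and Psmd1 of the regulatory particle rose by 0.65 ± 0.09 and 0.50 ± 0.06, and Psma7 and Psmb2 of the core particle fell by 0.60 ± 0.08 and 0.55 ± 0.09.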

How the data were processed

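Counts per gene were those the authors deposited. After adaptor trimming by Fastq-mcf, alignment was by HISAT2 2.0.5 against GRCm38. Gene assignment was by featureCounts 1.5.1 under GENCODE vM15, and a read with several alignments was divided between genes. The deposited values are therefore expected counts rather than whole counts: 37.3% of the nonzero values in the 41 oocytes were not whole, and all were rounded. The authors' RPKM values and spike-ins were not used here. Testing was limited to genes seen in 5 or more of the 41 libraries and used edgeR 4.0.16 in R 4.3.3 (TMM, quasi-likelihood test, Benjamini-Hochberg adjustment over all genes tested, threshold 0.05), without covariates. CPM used TMM-scaled library sizes, except for the Zp3 limit, which used plain totals. Single values were tested by exact two-sided permutation of the 7 mice. Gene lengths, GC content and biotypes came from GENCODE vM21, which held 43512 of the 43633 gene identifiers. The edgeR test was also run on simulated counts, and under a simulated GC trend it was run without and with the length and GC correction. Those counts were drawn for each oocyte independently, with no difference between mice of a group.

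The members and the 35 gene lists were chosen with earlier results of these data known. Genes were named by rule: the 10 largest rises and falls among protein-coding DEGs averaging 8 CPM or more, 3 of each among other biotypes, the 19 segregation genes, Pax6, Trim6 and Zfp521, up to 3 rises and falls per list, and marker genes. A gene that this rule names is not reported here. Alternatives were DESeq2 1.42.0, other filters, counts summed per mouse, all first-set oocytes in 1 fit, the excluded library restored, CR counts drawn down to Middle depth, the second AL set, length and GC correction, a cumulus covariate, normalization without mitochondrial genes, and each mouse left out. Leaving out libraries high in cumulus markers, the correction combined with other alternatives, and a block for mouse numbers were added after seeing the data.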

Additional observations from a re-analysis of the deposited data

How the results depend on the processing

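The numbers of genes higher and lower in CR oocytes stayed within 1.5 times 3986 and 3597 under all alternatives except 4. Summed per mouse they were 1266 and 876, and summed and corrected for length and GC content 951 and 843. Against the second AL set 6649 were higher, and 6138 with the correction. Of all calls 52.6% were higher, against 48.2% with DESeq2, 48.4% with CR counts drawn down to Middle depth, 49.8% after the correction and 60.8% with the second AL set, where the median of all genes was 0.14. Leaving out 1 mouse gave 3078 to 3953 higher and 2660 to 3650 lower. Without a mouse the exact test over mice cannot reach 0.05. The difference in the second component was then -75.19 to -57.71, in total counts 1246000 to 1396000, in the mitochondrial share 0.2635 to 0.6334 percentage points and in that of its protein genes 0.2054 to 0.2485. With genes scaled to unit variance the first component separated CR from Middle oocytes (difference -113, exact p = 0.0286).

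Of 161 named genes 157 were DEGs. Of these, 79 were not called with counts summed per mouse and corrected, and 48 with counts summed per mouse alone. With the library low in Zp3 restored 23 were not called, and after the correction alone 10 were not. Under the 23 alternatives 10 of the DEGs changed sign at least once. Against the second AL set, uncorrected and corrected, log2 fold changes were 2.23 and 2.20 for Cyp11a1, 1.36 and 1.24 for Star, 1.21 and 1.18 for Fosl2, 2.51 and 2.61 for Hsd3b1 and 2.52 and 2.52 for Irs2. With 1 mouse left out they ran from -4.98 to 1.53 for Cyp11a1, from -4.11 to 0.59 for Star and from -2.61 to 1.59 for Hsd3b1, each highest without Middle4. Without libraries high in cumulus markers, uncorrected and corrected, they were 1.21 and 1.25 for Hsd3b1, itself among the markers that decided which libraries were left out. Bub1 stood at -0.025 after the correction, -0.042 also without those libraries, -0.016 also summed per mouse and -0.14 against the second set. Esco2 stood at -0.10 without those libraries and -0.13 against the second set, both corrected. In the latter fit Cenpf stood at -0.15 and Mad2l1 at -0.051. With the library low in Zp3 restored mt-Rnr1 stood at -0.28. The causes were not tested.

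The mouse numbers 1 to 3 occur in both groups but name different animals, and mice with the same number did not deviate together (correlations over genes of -0.085, -0.004 and 0.059 for numbers 1, 2 and 3), nor did each correlate best with its own number. With the mouse number as a replicate block, added after seeing the data, 3098 genes were higher and 2669 lower. The mouse Middle4, with no CR mouse of its number, then adds nothing to the difference, and Cyp11a1, Star and Hsd3b1 stood at 2.15, 0.67 and 1.94.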

Other observations

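Of 13 circadian clock genes 2 were higher and 4 lower in CR oocytes (2 and 3 after the length and GC correction, and 2 and 1 with counts summed per mouse). Nr1d2, a repressor of the clock, stood at 4.91 to 24.9 CPM (median 10.5) in Middle and 12.2 to 36 CPM (median 22.4) in CR oocytes (log2 fold change 1.06 ± 0.16, adjusted p = 6.3e-07), and Clock, the core activator, rose by 0.48 ± 0.06 (adjusted p = 8.3e-08). Nr1d1, the paralog of Nr1d2, moved the other way, from 52.3 to 112 CPM (median 81.5) to 33.7 to 65.3 CPM (median 50.5), by -0.65 ± 0.08 (adjusted p = 9.5e-09), and Rora, an activator at the same sites, fell by 0.54 ± 0.10. CR mice were fed once a day, and the hour at which oocytes were taken is not given in the sources used here.

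Of 18 apoptosis genes 1 rose and 3 fell, against 15.8% and 14.2% of all genes. These counts were 1 and 2 after the correction, 0 and 2 of 19 with counts summed per mouse, and 3 and 3 without the libraries high in cumulus markers, where the median turned from -0.24 to 0.02. Bcl2l10, a survival gene highly expressed in oocytes, fell from 860 to 1558 CPM (median 1245) to 555 to 1036 CPM (median 829), by 0.59 ± 0.07 on the log2 scale (adjusted p = 7.4e-09), and the death-promoting gene Bik fell by 0.84 ± 0.13. The survival gene Mcl1 rose by 0.81 ± 0.24 (adjusted p = 0.0085). Of 31 autophagy genes 4 rose and 6 fell (3 and 7 after the correction, and 0 and 2 of 32 with counts summed per mouse), shares near those of all genes, with the lipid kinase Pik3c3 higher by 0.50 ± 0.07 and the lipid transfer gene Atg2a and the membrane protein Atg9a lower by 0.76 ± 0.15 and 0.59 ± 0.09. Of 14 DNA methylation genes 2 rose and 1 fell, shares at or under those of all genes (4 and 2 after the correction, and 1 and 0 with counts summed per mouse). The 5-methylcytosine oxidase Tet2 rose by 0.67 ± 0.16, Dppa3, which shields the maternal genome from demethylation, by 0.30 ± 0.09, and the imprinting factor Zfp57 fell by 0.22 ± 0.07 (adjusted p = 0.01).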
